A study of Mus musculus with 6 samples.

Results

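Cholesterol and fatty acid synthesis was followed through 34 genes, chosen by name as enzymes of the mevalonate, sterol and fatty acid pathways and regulators of their transcription, and all 34 were found among the 23235 genes of the authors' deposited table. The cells were primary macrophages grown from mouse bone marrow in medium conditioned by L-929 fibroblasts, and every animal was homozygous for GRdim, a glucocorticoid receptor mutation that impairs receptor dimerization. One group of 3 samples received lipopolysaccharide (LPS), the bacterial surface lipid that macrophages sense through Tlr4, for 6 h. The other group of 3 samples was treated overnight with 1 µM dexamethasone (Dex), a synthetic glucocorticoid, and then with LPS for 6 h. Neither wild-type nor unstimulated cells were analysed here, so every value below belongs to GRdim cells under LPS, and none shows what the mutation changed.

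Cholesterol is built from acetyl-CoA through mevalonate, isoprenoid diphosphates, squalene and lanosterol, and fatty acids are built from the same acetyl-CoA by carboxylation, chain extension and desaturation. Both routes are transcribed under the sterol regulatory element binding proteins (SREBPs), membrane-bound factors encoded by Srebf1 and Srebf2. The escort protein Scap carries them to the Golgi for cleavage when sterol is low, and the Insig proteins hold them back when sterol is high. In macrophages these pathways are known to respond both to inflammatory stimuli and to cholesterol taken up from dead cells.

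The authors' deposited table gives 1 value per gene and group in FPKM (a fragment count divided by transcript length and library size), with no value per sample. Whether the samples of the groups overlap can therefore not be shown, and library depth is unknown. Calls of higher and lower rest on the authors' q-value being under 0.05. The error given beside a change, the implied SE, is the log2 fold change divided by the deposited test statistic, without its sign. Whether these samples are separate animals or cultures is not stated in the labels, so the spread behind the test may be technical. Macrophage markers were abundant, with 6 tested markers between 29.3 and 686 FPKM in LPS+Dex. Of these 6, Itgam (log2 change 0.37), Csf1r (0.24) and Cd68 (0.22) were called higher, Emr1 (−0.24) was called lower and 2 were not called. Lyz2 was listed at 0 in both groups under the status HIDATA, which is not a measurement. The markers of T and NK cells, B cells, adipocytes and erythroid cells each summed to at most 0.149 FPKM in either group. The 7 neutrophil markers summed to 56.7 FPKM in LPS and 63.1 in LPS+Dex, nearly all from S100a8 (27.5 and 40.9) and S100a9 (24.0 and 18.8), with the granule genes Mpo and Elane at or below 0.0955. Of the 4 neutrophil markers tested, S100a8 was called higher, while S100a9 and the granule genes Camp (1.85 and 1.16 FPKM, log2 change −0.68) and Ngp (3.11 and 2.09 FPKM, log2 change −0.58) were called lower. The 6 dendritic cell markers summed to 4.15 and 2.68 FPKM. The 3 of them that were tested changed more than any of the 32 tested pathway genes, with Xcr1 (log2 change −2.21) and Ccr7 (−2.16) called lower and Clec10a (1.10) called higher, all at or below 2.63 FPKM. The 6 stromal markers summed to 2.33 and 2.68 FPKM, with Dcn called higher (0.389 and 0.703 FPKM). The part of these cells in the results was not tested, and in bulk RNA fewer cells of a type and less RNA per cell cannot be told apart.

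Genes of cholesterol synthesis were modestly higher with Dex, whereas Srebf1, Srebf2, Scap, Insig1 and Insig2, the SREBP genes and their regulators among the 34, were not called. By the authors' deposited table, 15 of the 32 tested genes (46.9%) were called higher, against 17.7% of all 11755 tested genes, and 1 (Acaca) was called lower, against 25.2%. In either direction 16 of 32 were called, against 42.9% of all tested genes. Among all tested genes of at least 5 FPKM in a group, a level most of the 32 reached, 52.4% were called, with q adjusted over them. Most of the rises belonged to the mevalonate and sterol arms, where 12 of 18 tested genes were called higher and none lower. At an unadjusted p under 0.05, 14 of the 18 were higher and none lower, beside 20.6% and 27.9% of all tested genes. The median log2 fold change was 0.13 over the 32 genes and 0.17 over those 18, beside −0.011 over all tested genes. The changes were small. Dhcr7 was the only one of the 32 that was called and changed by at least 1.5-fold, a size reached by 5.03% of all tested genes upward and 5.5% downward. With Bonferroni adjustment 9 of the 32 were called higher, beside 7.52% of all tested genes.

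**Figure D1:**
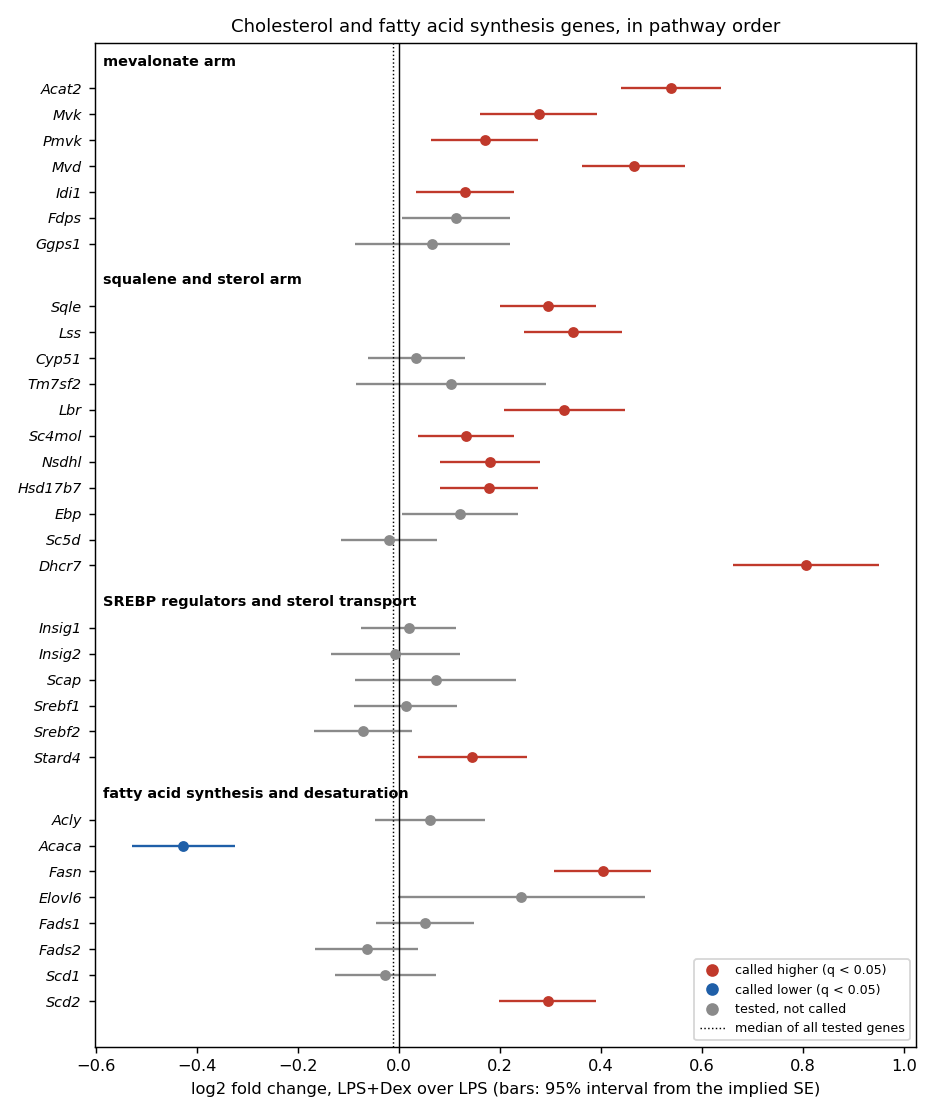
Log2 fold change of LPS+Dex over LPS (horizontal axis) for the 32 tested genes, listed from top to bottom in pathway order; points are the authors' deposited values and bars are 95% intervals from the implied SE. The called rises (red) lie mostly in the upper 2 blocks, up to 0.81 for Dhcr7, the regulators cluster around 0, and Acaca at −0.43 is the single called fall (blue).

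The promoters of the genes that rose most are shown because SREBP target promoters are known to carry particular short motifs. Of the 34 genes, 27 had a window in the RefSeq promoter table (GRCm38.p6), which covers 250 bases before and 50 after a start site. The CCAAT box, the binding sequence of the factor NF-Y that works beside SREBPs, was searched as CCAAT on both strands, so that it appears as ATTGG on the other strand. It was present in 22 of the 27 (81.5%), beside 43.4% of the 8408 tested genes with a window. The classical sterol regulatory element, searched as TCACNCCAC on both strands, was present in 1 of the 27, Hmgcs1, which had no test. It was present in 1.38% of the tested genes and 1.44% of all genes with a window. Among the 34, it was in 0 of the 12 genes called higher that had a window. It was also in 0 of the 13 that were tested and not called. At a share of 1.38% in tested genes, sets this small would mostly hold 0 matches, so these 0s cannot tell the groups apart. Looser forms of the element were not searched. These counts describe letters and are not binding sites. The 120 bases before the start are shown for the 5 genes with a window and the largest called rises, 5′ to 3′ on the gene's strand, with CCAAT and its reverse complement in capitals.
Dhcr7, chr7:143830094-143830213, plus strand: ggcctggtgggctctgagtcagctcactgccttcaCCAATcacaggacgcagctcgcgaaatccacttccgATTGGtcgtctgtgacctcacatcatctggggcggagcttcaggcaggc
Acat2, chr17:12960726-12960845, minus strand: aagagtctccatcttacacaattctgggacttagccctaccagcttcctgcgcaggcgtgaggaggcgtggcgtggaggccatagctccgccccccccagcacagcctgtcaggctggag
Mvd, chr8:122443423-122443542, minus strand: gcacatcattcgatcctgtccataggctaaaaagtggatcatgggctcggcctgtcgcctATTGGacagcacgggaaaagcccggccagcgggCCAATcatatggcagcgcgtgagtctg
Fasn, chr11:120824548-120824667, minus strand: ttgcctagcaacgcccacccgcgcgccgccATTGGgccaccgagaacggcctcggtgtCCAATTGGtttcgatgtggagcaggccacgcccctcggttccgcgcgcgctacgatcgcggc
Lss, chr10:76531485-76531604, plus strand: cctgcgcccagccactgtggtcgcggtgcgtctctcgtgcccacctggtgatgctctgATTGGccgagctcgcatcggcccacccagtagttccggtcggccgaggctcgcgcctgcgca

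Of these, Mvd and Dhcr7 hold 2 boxes each, Fasn 3 of which 2 overlap, Lss 1 and Acat2 none. For Dhcr7, the window with the most matches of its 3 is shown. It belongs to the start site that lies 7047 bases downstream of the gene's first one, and the other 2 windows hold no CCAAT. The start site of the Fasn window lies 619 bases downstream of the gene's 5′ end. A match within 120 bases of a start was present in 18 of the 27 genes (66.7%), beside 29.3% of tested genes, a distance chosen after the matches were seen. By call, it was present in 10 of the 12 genes called higher that had a window and in 7 of the 13 that were tested and not called (83.3% and 53.8%). Over the full windows the split was closer, with a match in 11 of those 12 (91.7%) and 10 of those 13 (76.9%). Neither difference between shares was tested. The only window for Acaca lies 65803 bases inside the gene and is not shown.

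The mevalonate arm turns acetyl-CoA into isoprenoid diphosphates. In the authors' deposited table, 5 of its 7 tested genes were called higher (71.4%, beside 17.7% of all tested genes) and 0 lower (beside 25.2%). Acat2, the cytosolic thiolase that joins acetyl-CoA units at the head of the pathway, was at 27.4 FPKM in LPS and 39.8 FPKM in LPS+Dex (log2 change 0.54, implied SE 0.050, q listed as 0). Mvd, the decarboxylase that makes isopentenyl diphosphate, was at 28.3 and 39.1 FPKM (log2 change 0.46, implied SE 0.052, q listed as 0). These were the larger rises of the arm, at 45.3% and 38.0%. The mevalonate kinase gene Mvk rose from 13.7 to 16.6 FPKM (log2 change 0.28, implied SE 0.059). Pmvk, which encodes the kinase of the next step, rose from 46.3 to 52.1 FPKM (log2 change 0.17, implied SE 0.054). The isomerase gene Idi1 rose from 83.2 to 91.0 FPKM, a change of 9.48% that passed narrowly (q = 0.0208). Fdps, the farnesyl diphosphate synthase gene and the most abundant of all 32 at 250.1 and 270.4 FPKM, was not called (log2 change 0.11, q = 0.0837). Its 95% interval from the implied SE ran from 0.382% to 16.4% above the LPS level. Ggps1, which makes geranylgeranyl diphosphate for protein prenylation instead of sterol, was not called at 3.77 and 3.95 FPKM (q = 0.535). Hmgcs1, the HMG-CoA synthase gene, had no test. It was listed at 0 in both groups at bases 308619 to 326235 of an unplaced chromosome 13 sequence of mm9, and no level is read from it.

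The squalene and sterol arm followed the same pattern in the authors' deposited table. Of its 11 tested genes, 7 were called higher (63.6%, beside 17.7% of all tested genes) and 0 lower (beside 25.2%). The largest rise of all 32 was in the last reductase of the pathway, Dhcr7 (mm9 chromosome 7, bases 151009071 to 151034315 by the table). It went from 3.06 FPKM in LPS to 5.36 FPKM in LPS+Dex (log2 change 0.81, implied SE 0.073, q listed as 0), or 1.75-fold, from one of the lowest levels in the arm. On the log2(FPKM + 1) scale, which tempers scarce genes, its change was 0.65. Sqle, the squalene epoxidase and a rate-limiting step after mevalonate, rose from 41.5 to 50.9 FPKM (log2 change 0.30, implied SE 0.048). Lss, the cyclase that forms lanosterol, rose from 22.3 to 28.3 FPKM (log2 change 0.35, implied SE 0.049). Lbr, an inner nuclear membrane protein that binds lamin B and is also a sterol reductase, rose from 5.27 to 6.62 FPKM (log2 change 0.33, implied SE 0.061). Tm7sf2, which encodes a second enzyme with that reductase activity, was not called at 10.2 and 11.0 FPKM (log2 change 0.10, implied SE 0.096, q = 0.414). Sc4mol, Nsdhl and Hsd17b7, which act after the demethylase Cyp51 to remove further methyl groups from the sterol nucleus, were each called higher by a small amount, whereas Cyp51 was not called. Sc4mol, the methylsterol oxidase, went from 117 to 129 FPKM (log2 change 0.13, q = 0.0168). Nsdhl went from 26.9 to 30.5 FPKM (log2 change 0.18, q = 0.00119). Hsd17b7 went from 14.7 to 16.7 FPKM (log2 change 0.18, q = 0.00103).

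Not every step of this arm was called in the authors' deposited table. Cyp51, the lanosterol demethylase, stood at 49.3 and 50.5 FPKM (q = 0.608), with a 95% interval from 4.1% below to 9.46% above the LPS level (log2 change 0.035). The isomerase gene Ebp stood at 14.4 and 15.7 FPKM (log2 change 0.12) and narrowly missed the threshold (q = 0.0817). The desaturase gene Sc5d stood at 45.8 and 45.1 FPKM and was the single tested gene of both arms with a value below 0 (log2 change −0.020, q = 0.785). Fdft1, the squalene synthase gene, was marked HIDATA and listed at 0 in both groups, so it has no measurement. It shares its locus in the table with the cathepsin gene Ctsb, which carries the same mark.

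**Figure D2:**
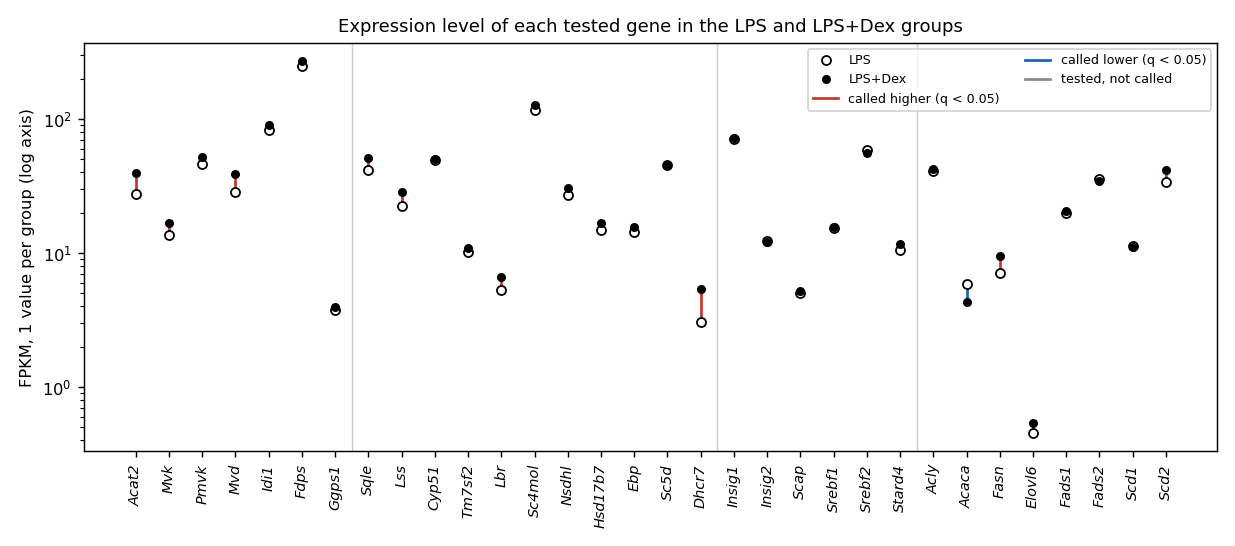
FPKM of each tested gene in LPS (open circles) and LPS+Dex (filled circles), 1 value per group as deposited, on a log axis, with grey lines between the pathway blocks; the joining line is red for a called rise, blue for a called fall and grey for no call. Levels span 0.453 (Elovl6) to 250.1 FPKM (Fdps) in LPS, and the gap between circles is widest for Dhcr7.

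Srebf1, Srebf2, Scap and the Insig genes were close to their LPS levels in the authors' deposited table. None of the 5 was called at q under 0.05, and none had an unadjusted p under 0.05. Of all tested genes, 42.9% were called in either direction. Among those of at least 5 FPKM in a group, a level all 5 reached, 52.4% were called, with q adjusted over them. At an unadjusted p under 0.05, 20.6% of all tested genes were higher and 27.9% lower. Srebf2, whose product drives the sterol genes, was at 58.6 and 55.8 FPKM (log2 change −0.071, q = 0.257). Srebf1, whose product drives mainly fatty acid genes, was at 15.4 and 15.6 FPKM (log2 change 0.014, q = 0.867). Insig1, itself a classical SREBP target, was at 71.6 and 72.6 FPKM (log2 change 0.020, q = 0.785). Its 95% interval reached from 5.06% below to 8.24% above the LPS level, and relative to genes of like level (a running median over 500 genes) it was called higher (log2 0.14, q = 0.00946). Insig2 stood at 12.2 and 12.2 FPKM (q = 0.948) and Scap at 4.98 and 5.24 FPKM (q = 0.512). The sterol transport gene Stard4 was the exception among the 6 genes of this block. It rose from 10.5 to 11.6 FPKM (log2 change 0.15, implied SE 0.055, q = 0.0223).

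Of 8 tested fatty acid genes, 2 were called higher (25%, beside 17.7% of all tested genes), 1 lower (12.5%, beside 25.2%) and 5 were not called in the authors' deposited table. Counts this small lie near the shares over all tested genes, and the values of single genes are given instead. Acaca, the acetyl-CoA carboxylase that commits carbon to fatty acids (mm9 chromosome 11, bases 84008939 to 84215153), fell from 5.82 to 4.33 FPKM (log2 change −0.43, implied SE 0.052, q = 2.72e-15). Fasn, the fatty acid synthase that uses the carboxylase product, rose from 7.13 to 9.44 FPKM (log2 change 0.40, implied SE 0.049, q = 2.72e-15). These successive enzymes thus moved apart. Their log2 changes differed by 0.83, with a 95% interval from 0.69 to 0.97 if their errors are taken as independent, and the ratio of Fasn to Acaca in FPKM went from 1.23 to 2.18. Acly, which supplies cytosolic acetyl-CoA from citrate to both pathways, stood at 40.8 and 42.6 FPKM (log2 change 0.061, q = 0.399).

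The stearoyl-CoA desaturase genes Scd1 and Scd2, both on chromosome 19 in the authors' deposited table, also differed from each other. Scd2 rose from 34.0 to 41.7 FPKM (log2 change 0.29, implied SE 0.049, q = 1.27e-08), while Scd1 stood at 11.4 and 11.1 FPKM (log2 change −0.027, q = 0.715). The difference between their log2 changes was 0.32 (95% interval 0.18 to 0.46, errors taken as independent). These are close paralogs, and the sources used here do not say how reads that match both were assigned. The desaturases of polyunsaturated fatty acids were not called, with Fads1 at 19.9 and 20.7 FPKM (q = 0.430) and Fads2 at 35.8 and 34.3 FPKM (q = 0.340). Elovl6, which lengthens palmitate, was the scarcest at 0.453 and 0.536 FPKM and was not called (log2 change 0.24, implied SE 0.13, q = 0.107).

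Across the whole of the authors' deposited table, the more abundant a gene, the lower it tended to be with Dex, and the rises of the abundant sterol genes ran against that tendency. Among tested genes with a mean log2 FPKM between 6 and 7, the level of Sc4mol and Idi1, the median log2 fold change was −0.14 and the 95th percentile 0.23. Relative to genes of like level, estimated as a running median over 500 genes, Fdps, Cyp51, Insig1 and Acly were also called higher, at log2 0.30, 0.12, 0.14 and 0.15, which brought the count to 19 higher and 1 lower, beside 18.4% and 21.2% of all tested genes by the same rule. Across the 32 genes, level and change were weakly related (Spearman's rho −0.18, across genes, which are not independent replicates). Summed over the mevalonate and sterol arms, FPKM went from 803 to 902 (12.3% higher), and over the 6 regulator and transport genes from 173.3 to 173.0. Lss, Tm7sf2, Srebf1, Srebf2 and Scd2 each share their locus with 1 other row, and the labels do not state whether strand was used in the quantification.

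**Figure D3:**
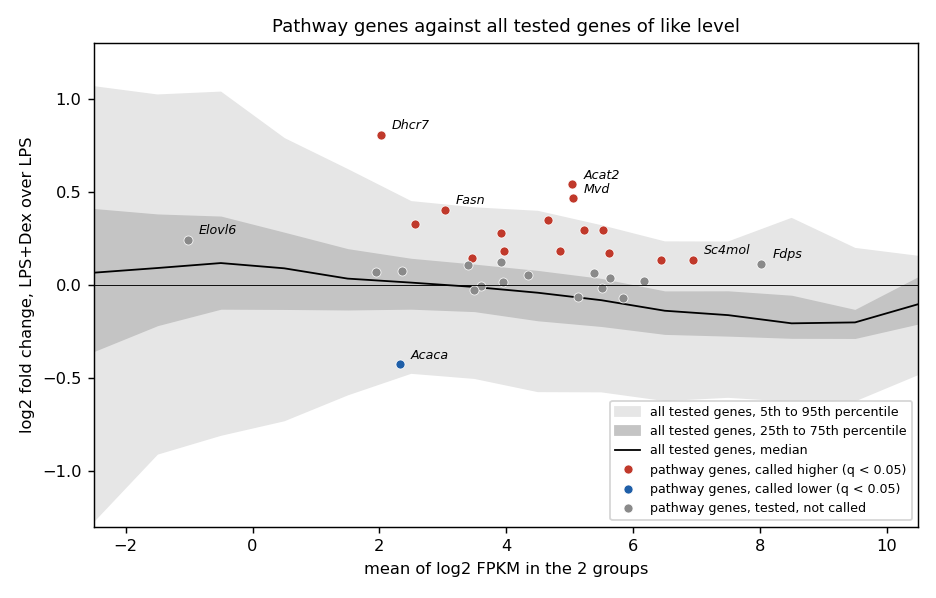
Log2 fold change (vertical axis) against the mean of log2 FPKM in both groups (horizontal axis) for the 32 genes, over bands that hold the central 50% and 90% of all tested genes in bins of level. The black line is the median of all tested genes and slopes below 0 at high levels; Dhcr7, Acat2 and Mvd lie above the 95th percentile of genes of like level.

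Beyond these 34, a list of 56 other genes of the same pathways held 51 tested genes, of which 13 were called higher (25.5%, beside 17.7% of all tested genes) and 12 lower (23.5%, beside 25.2%) in the authors' deposited table. The sterol and isoprenoid part of this list held 10 tested genes. Of these, 1 was called higher (10%, beside 17.7% of all tested genes) and 3 lower (30%, beside 25.2%). Their median log2 fold change was 0.019. Nus1, a subunit of the enzyme that makes dolichol from isoprenoid units, rose from 32.9 to 53.0 FPKM (log2 change 0.69, implied SE 0.049). Cyp27a1, which makes the oxysterol 27-hydroxycholesterol, fell from 2.79 to 2.04 FPKM (log2 change −0.45, implied SE 0.10). Pggt1b, a subunit of a protein prenyltransferase, fell from 8.02 to 6.89 FPKM (log2 change −0.22, implied SE 0.062). Fnta, the subunit that this enzyme shares with farnesyltransferase, fell from 19.1 to 16.5 FPKM (log2 change −0.21, implied SE 0.056).

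Among 16 tested genes of sterol sensing, transport and storage in the authors' deposited table, 2 rose (12.5%, beside 17.7% of all tested genes) and 6 fell (37.5%, beside 25.2%). The largest change was in Mylip, which encodes IDOL, a ubiquitin ligase induced by oxysterol receptors. It fell from 15.4 to 7.37 FPKM (log2 change −1.06, implied SE 0.060). Soat1, which esterifies cholesterol for storage, rose from 32.8 to 44.6 FPKM (log2 change 0.44, implied SE 0.049). Nr1h3, the oxysterol receptor LXR alpha, rose from 16.8 to 21.0 FPKM (log2 change 0.32, implied SE 0.066). Rnf139, a sterol-responsive ubiquitin ligase, fell from 20.2 to 15.2 FPKM (log2 change −0.42, implied SE 0.049). Fbxw7, whose product marks nuclear SREBPs for degradation, fell from 5.90 to 4.91 FPKM (log2 change −0.26, implied SE 0.072). Mbtps2, a Golgi protease that releases SREBPs from the membrane, was chosen after its value was seen and fell from 7.95 to 7.16 FPKM (log2 change −0.15, implied SE 0.057, q = 0.0195). Its call was lost after centring on the median gene of 1 FPKM or more (q = 0.0566). It was kept relative to genes of like level (q = 0.0268).

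Among 25 other tested genes of fatty acid synthesis, elongation, activation and esterification, 10 rose (40%, beside 17.7% of all tested genes) and 3 fell (12%, beside 25.2%) in the authors' deposited table. Their median log2 fold change was 0.16. It was 0.17 over the 18 tested genes of the mevalonate and sterol arms and −0.011 over all tested genes. Acss2, which makes acetyl-CoA from acetate, rose from 15.6 to 23.8 FPKM (log2 change 0.61, implied SE 0.052). Dgat2, which completes triglyceride synthesis, rose from 5.18 to 6.95 FPKM (log2 change 0.43, implied SE 0.069). Fads3, a paralog of Fads1 and Fads2, rose from 1.82 to 2.33 FPKM (log2 change 0.36, implied SE 0.087). The acyl-CoA synthetase gene Acsl1, the most abundant of this list, fell from 269 to 180.1 FPKM (log2 change −0.58, implied SE 0.058). Agpat3, an acyltransferase of phospholipid synthesis, fell from 18.6 to 14.0 FPKM (log2 change −0.41, implied SE 0.051). Me1, the malic enzyme that supplies NADPH for fatty acid synthesis, fell from 6.47 to 5.36 FPKM (log2 change −0.27, implied SE 0.062).

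**Figure D4:**
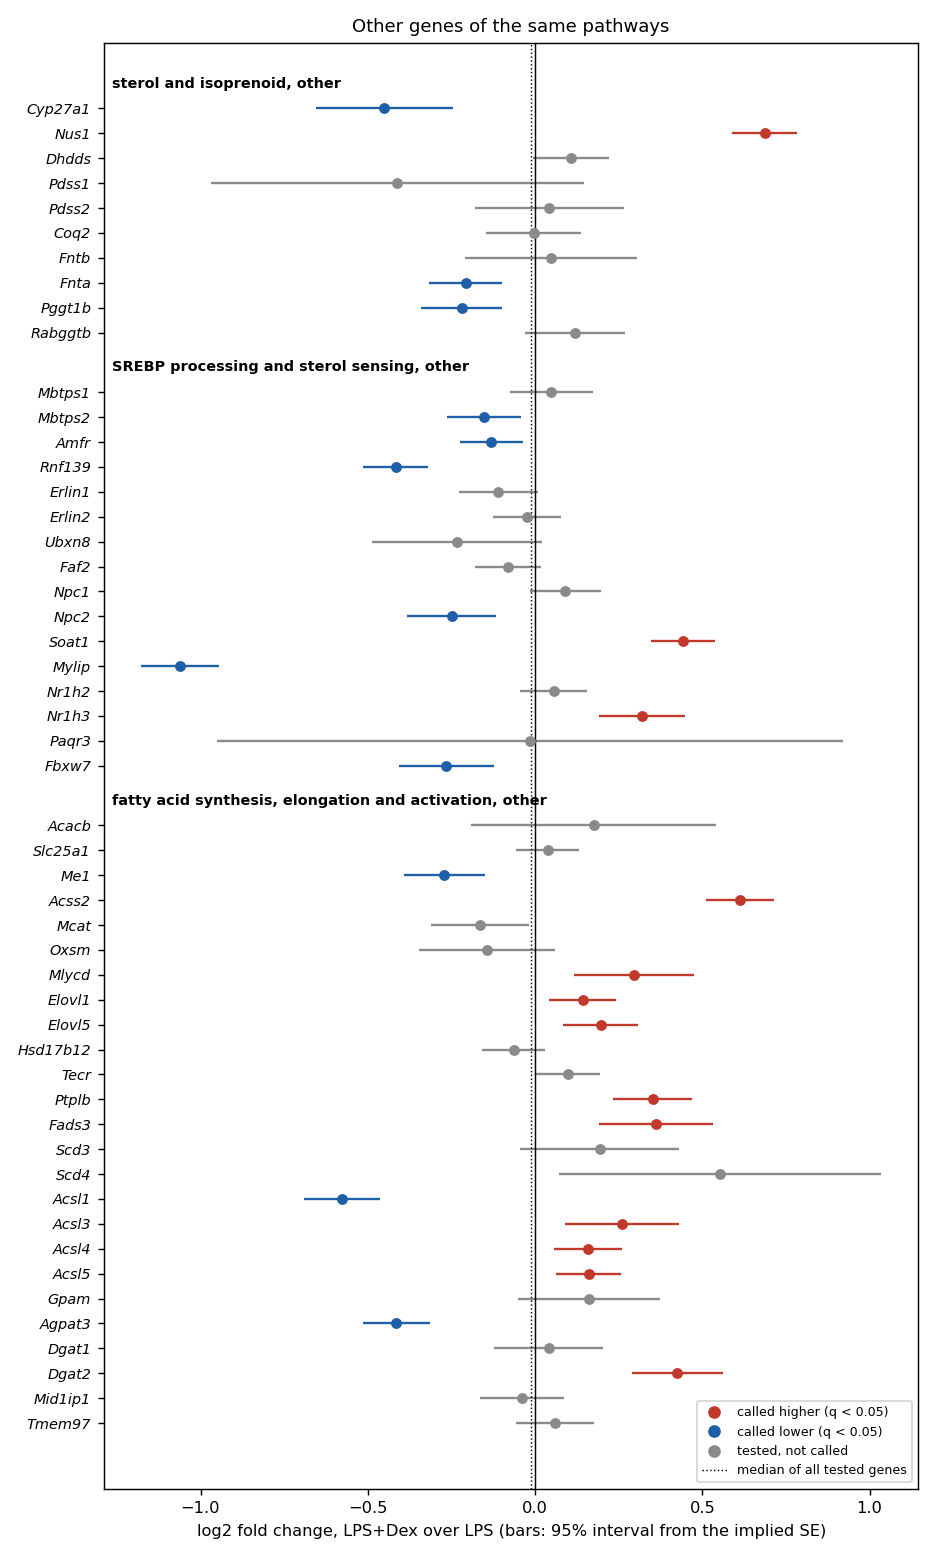
Log2 fold change of LPS+Dex over LPS (horizontal axis) with 95% intervals from the implied SE for the 51 tested genes of the 3 comparison lists, as in the authors' deposited table. Called rises (red) and falls (blue) are mixed, from −1.06 for Mylip to 0.69 for Nus1.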

How the data were processed

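RNA of 6 samples, 3 per group by title, was sequenced in stranded paired-end libraries, per the labels' protocols. The authors deposited 1 table comparing the groups, with 1 FPKM value per gene and group, a test statistic (a score whose sign is opposite to the fold change), a p-value and a q-value, per the file headers. CASAVA, TopHat 1.4.1, Cufflinks 2.0.2 and build mm9 are named in the submitters' processing notes, without role or order. The sources used here state neither the annotation nor how replicates were combined. FPKM depends on the assumed transcript length and on each library's total. The authors tested 11755 of 23235 genes.

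Members and lists were chosen with earlier results of these data known, so no test over a list was made. Calls are the authors' (q under 0.05), and the deposited q equals a Benjamini-Hochberg adjustment of the deposited p-value over the tested genes. From the deposited values, log2 fold changes (equal to the deposited ones), implied SEs and 95% intervals (normal, from the implied SE) were computed with Python 3.11.15, pandas 2.3.3 and scipy 1.17.1, and the recomputed adjustment and trend removal were tested on simulated data. Every member was named. Of the comparison lists, Mylip and Soat1 were fixed by name, and some other genes are not reported here and were left out of the lists and counts. Also named were, in each list and direction, up to 3 called genes of at least 1 FPKM with the largest change. Alternatives were q under 0.01 or 0.1, Bonferroni adjustment, at least 1.5-fold, minima of 1 or 5 FPKM, pseudocounts of 0.1 or 1, centring, trend removal and leaving out overlapping loci. A planned comparison of paralog proteins was not made, as no protein sequence was used here.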

Additional observations from a re-analysis of the deposited data

How the results depend on the processing

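The number of the 32 tested genes called higher was 15 and stayed between 12 and 19 with q under 0.01 or 0.1, minima of 1 or 5 FPKM, centring on the median gene of 1 FPKM or more, removal of the trend on expression level, or without the members whose locus overlaps another row, where 13.7% to 20.4% of all tested genes were called higher. With Bonferroni adjustment it was 9 (7.52% of all tested genes were called higher so). With a change of at least 1.5-fold required, 1 was called higher (5.03% of all tested genes) and 0 lower (5.5%), Acaca having changed by 1.34-fold. The cause is the size of the changes, by the construction of that rule. The number called lower was 1 under the other alternatives. By those rules, from 13.1% (Bonferroni) to 35.1% (at least 5 FPKM) of the tested genes they covered were called lower. The median log2 fold change ranged from 0.11 with a pseudocount of 1 to 0.16 with the trend removed. Idi1, Sc4mol and Stard4 were not called at q under 0.01. Fdps and Ebp were called at q under 0.1 and after centring, and no named gene reversed its direction in a called result. No paired analysis was possible because the table gives groups and not samples; for the same reason no replicate could be left out. Library depth is unknown, so what it limits could not be assessed.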
